A study of Mus musculus with 2 samples.

Results

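The surface markers by which long-term hematopoietic stem cells (LT-HSCs) are recognized were compared as RNA between p38α+/+ LT-HSCs and LT-HSCs labelled p38αΔ/Δ. The set was 10 genes, taken as every non-control probe whose gene name on the array was a marker of the sort gate (Slamf1, Kit, Ly6a, Cd48, Cd34, Flt3, Itga2b) or another standard HSC surface marker (Procr, Cd244, Cd27). All 10 genes had a probe, and together they had 15 of the 55681 distinct non-control probes. The choice used gene names and no measured values, but it was made with earlier results of these arrays known.

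The study asked how loss of p38α, a stress-activated kinase encoded by Mapk14, acts on LT-HSCs of aged mice. Bone marrow LT-HSCs of C57BL/6J mice at 2 years of age were sorted, and their total RNA, carrying the dye Cy3, was read on Agilent mouse arrays of a single colour. Each genotype had 1 array, and both lay on 1 slide. The p38αΔ/Δ mice carried CAG-CreERT2 and p38αfl/fl, the Cre being driven by the CAG promoter, which is active in most tissues and not in blood cells alone, and had received tamoxifen (TAM) at about 1 year of age. The p38α+/+ controls were Cre(-) p38αfl/fl mice of the same age that had also received TAM, so that both groups carried the floxed alleles and the drug. How many mice were behind each array is not given in the sources used here. As 1 array stood for each genotype, no spread between mice and no test could be given, and each difference below is a difference between these 2 arrays.

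LT-HSCs make up a very small part of the marrow and are picked out by combinations of surface proteins rather than by any single marker. LSK names cells that lack mature lineage markers and carry Sca-1, the product of Ly6a, and c-Kit, the stem cell factor receptor encoded by Kit. Within LSK cells the SLAM receptors CD150 (Slamf1) and CD48, together with CD34 and the cytokine receptor Flt3, separate LT-HSCs from multipotent progenitors, and CD41 (Itga2b), an integrin chain of platelets, also marks part of the HSC pool. The study's methods describe a gate that was positive for CD150 and negative for CD41, CD48, CD34 and Flt3 among LSK cells, and the sample labels name the same gate without CD41. A legend of the study's supplement names only CD150 and CD48 within LSK, and the design text deposited with the arrays names only CD34 and Flt3, so that no marker besides those of LSK stands in every description. Selected for and selected against are used here as the methods have it. The gate read protein on the cell surface and the arrays read RNA in the sorted cells, so the values below are not a check of the sort.

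The genes selected for by the gate were lower on the array labelled p38αΔ/Δ, Slamf1 and Ly6a by less than 2-fold and Kit by little. Among the genes selected against, Cd48 was higher at its upstream probe, Cd34 was lower at its upstream probe, and Itga2b was lower by 1.29-fold. The downstream probes of Cd48 and Cd34 had the same directions but differed by less than the scanner error given below. The Flt3 probes went both ways, the only fall being within its error. Procr, which encodes the endothelial protein C receptor EPCR and was not part of the gate, showed the largest fall of the 10 genes, 2.32-fold.

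The probe sequences are shown because several genes were read at more than 1 site of the transcript and the sites gave different answers. They were taken from the scanner files, run 5′ to 3′ along the transcript, and lie where the array design places them on build mm9. A probe had 60 bases. Those shown whole are the upstream probes of Cd48, Cd34 and Flt3 and the probe of Itga2b, and for the others the first 30 of the 60 bases are given. Upstream and downstream refer to the position along the transcript.
Slamf1, chr1:173730343-173730402, + strand, first 30 bases: ttttagagcctcttatgcttcaaacaacag
Ly6a, chr15:74825553-74825612, - strand, first 30 bases: tatgagttatagaagctccaaggtgggagt
Cd48 upstream, chr1:173629721-173629780, + strand: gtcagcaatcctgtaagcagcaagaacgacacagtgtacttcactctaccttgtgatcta
Cd48 downstream, chr1:173635201-173635260, + strand, first 30 bases: cctgtgtgcccagtcctttacaaagatttc
Cd34 upstream, chr1:196785280-196785339, + strand: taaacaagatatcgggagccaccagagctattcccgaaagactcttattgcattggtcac
Cd34 downstream, chr1:196787392-196787451, + strand, first 30 bases: ccagagatgagaggattgggtgtattctct
Flt3 upstream, chr5:148178496-148178555, - strand: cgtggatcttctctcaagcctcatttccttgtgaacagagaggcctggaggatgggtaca
Flt3 downstream, chr5:148142576-148142635, - strand, first 30 bases: agatgctgtctgccattactccaaagtgac
Itga2b, chr11:102319453-102319661, - strand: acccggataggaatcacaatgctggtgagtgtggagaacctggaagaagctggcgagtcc
Procr, chr2:155580945-155581004, + strand, first 30 bases: ggcagacttactgtaggcattcaaaacatc
Cd244, chr1:173515388-173515447, + strand, first 30 bases: tgCACAGAGAAACCCTGTCTCAAtccctaa
The capitals in the Cd244 probe mark bases that it shared, in runs of 15 or more, with probes of other genes. The Itga2b probe spans 209 bases of the genome for its 60 bases, so it crosses at least 1 exon junction. The remaining probes shown are placed on an unbroken stretch of 60 bases. Whether a probe lies in an exon or a UTR is not stated here, because no annotation of mm9 was used.

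In what follows a level is the log2 signal of a probe minus the 75th percentile of log2 signals of its array (7.16 for p38α+/+ and 6.85 for the array labelled p38αΔ/Δ), and a difference is the level on the array labelled p38αΔ/Δ minus that on the p38α+/+ array. A negative difference is therefore a lower value on the array labelled p38αΔ/Δ. The error of a signal is that of the scanner software's error model, and for the differences of the 15 probes it came to between 0.20 and 0.24. Measured directly, probes spotted 4 or more times on the array had a median SD between spots, taken on the difference between the arrays, of 0.08 (166 probes) where the mean level was -1 or higher and 0.23 (112 probes) where it was below -1, here called the dim range. Neither error holds any variation between mice. Of 59305 non-control spots, 68.1% (p38α+/+) and 69.2% (array labelled p38αΔ/Δ) were called well above background by the scanner software. Mapk14, the targeted gene, was as high on the array labelled p38αΔ/Δ as on the other at both of its probes (levels of 2.34 and 2.31, a difference of -0.04, and 2.08 and 2.03, a difference of -0.05). Whether these probes lie in the deleted part could not be told here. By genomic PCR of blood cells from mice of this age, the study reported less p38α in p38αΔ/Δ than in p38α+/+ mice. It also reported lower expression of p38MAPK pathway genes in p38αΔ/Δ HSCs. Neither result was analysed here, and every direction below rests on the label.

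None of the 15 probes was too dim to be measured on either array. On the array labelled p38αΔ/Δ 10 of the 15 were lower and 5 higher, where 50.3% of all probes were lower. Of the 15, 11 differed by more than their scanner error and 8 by more than 2 such errors. The share of all probes beyond such errors was not computed. The interquartile range of all probes measured on both arrays, -0.35 to 0.37, was itself wider than these errors. The 2 counts are therefore not read as a result about the markers. At the brightest probe of each gene 7 genes were lower and 3 higher, with a median difference of -0.26, beside a median of -0.04 and a share of 53.1% lower over 15680 named genes. A fall of 2-fold or more was seen at 1 of the 15 probes, that of Procr, against 5.52% of the 35776 probes measured on both arrays, and a rise of that size at 1 of 15, the upstream Cd48 probe, against 5.01%. With 15 probes, these counts stand near the background. The background depended on the level: in the dim range, which held the Slamf1 probe and all Cd48 and Flt3 probes, 8.42% of 16907 probes fell and 7.66% rose by 2-fold or more, whereas among 18869 brighter probes, where the other 9 member probes lay, the shares were 2.92% and 2.64%. Just short of 2-fold stood the upstream Cd34 probe (a difference of -0.997, or 1.996-fold).

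**Figure D1:**
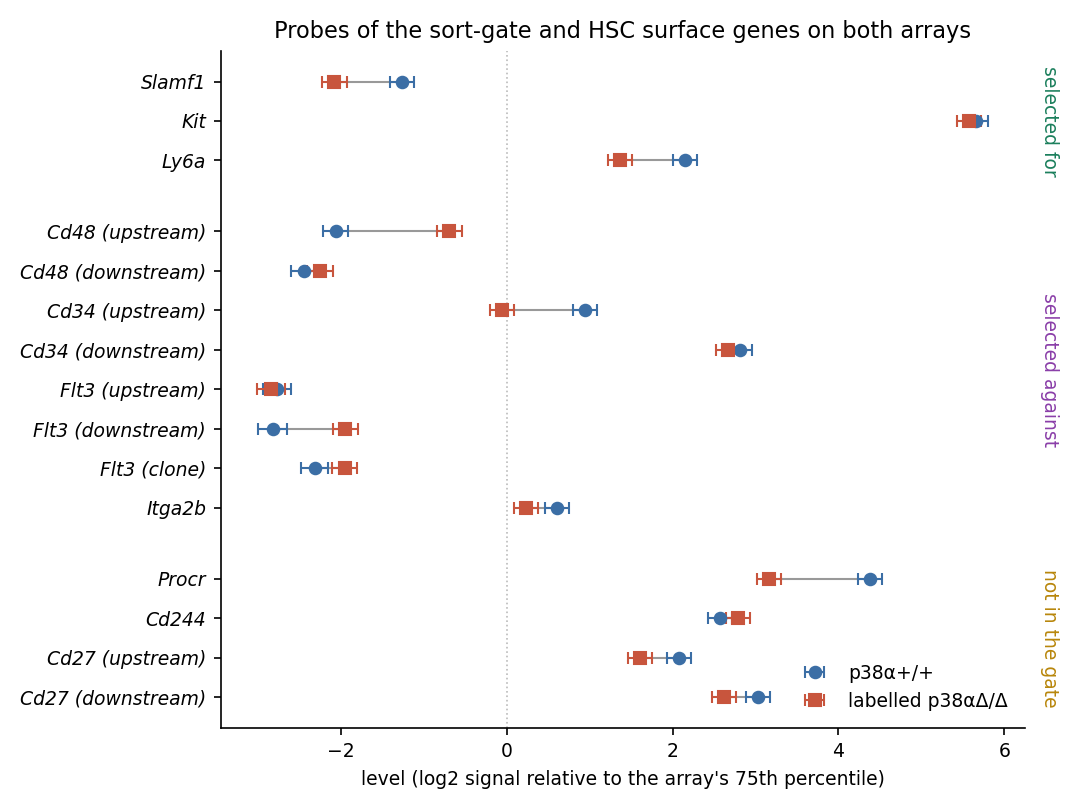
Level of each probe (log2, with the 75th percentile of the array at 0) on the p38α+/+ array (circles) and the array labelled p38αΔ/Δ (squares), with bars of 1 scanner error and a line joining both. The probes are grouped by whether the gate selected for, selected against or did not use the marker, and "clone" marks the Flt3 probe designed on a cDNA clone. Procr fell from 4.38 to 3.17, and the upstream Cd48 probe went from -2.06 to -0.69.

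Slamf1 encodes CD150, the SLAM receptor that marks LT-HSCs and is most abundant on those inclined towards the platelet and myeloid lineages. Its signal was 59.9 ± 6.15 (scanner error) for p38α+/+ and 27.3 ± 2.91 for the array labelled p38αΔ/Δ, levels of -1.26 and -2.08. The array labelled p38αΔ/Δ was the lower by 1.76-fold, a difference of -0.82 ± 0.21. The probe lay in the dim range. With a normexp correction, which models the local background and adds an offset of 50, the difference was -0.26. Slamf1 stands on the study's list of aged HSC markers.

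Ly6a encodes Sca-1, a small GPI-anchored protein that defines the S of LSK and is induced by interferons. Its signal was 636 ± 63.6 for p38α+/+ and 298 ± 29.8 for the array labelled p38αΔ/Δ, levels of 2.15 and 1.37. This was a difference of -0.78 ± 0.20, or 1.71-fold lower on the array labelled p38αΔ/Δ. Unlike Slamf1, this brighter probe kept its value under each of the 8 other ways of processing the signal, with differences between -0.78 and -0.72.

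Kit, the receptor for stem cell factor, was spotted 2 times on each array. The p38α+/+ spots gave signals of 7167 and 7358, and those of the array labelled p38αΔ/Δ gave 5600 and 5334. After scaling, the levels were 5.66 and 5.57 and the difference was -0.09 ± 0.20. The spots taken singly gave -0.04 and -0.15, so the difference lay within the scanner error and near the spread between the spots. Over the 3 genes the gate selected for, all 3 were lower and the median difference was -0.78, or -0.26 with the normexp correction.

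Cd48 encodes the GPI-anchored SLAM protein whose absence separates HSCs from most progenitors, and the gate excluded CD48+ cells. The upstream probe, at base 621 of the transcript, gave a signal of 34.3 ± 3.71 for p38α+/+ and 71.3 ± 7.21 for the array labelled p38αΔ/Δ. The levels were -2.06 and -0.69, and the difference of 1.37 ± 0.21 (2.59-fold higher) was the only rise of 2-fold or more among the 15 probes. The downstream probe, at base 954, gave 26.5 ± 3.01 and 24.3 ± 2.65, levels of -2.44 and -2.25, and a difference of 0.19 ± 0.23, less than its error. The sites thus agreed in direction and differed by 1.18 in size, and 12.4% of the 3587 genes with 2 probes had sites as far apart. Both Cd48 probes were dim, however. Among the 779 genes with 2 or more probes that were all dim, the upper quartile of this gap was 1.16. With the normexp correction the upstream difference was 0.71 and no longer reached 2-fold.

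Cd34 encodes a sialomucin of progenitors and endothelium that adult mouse LT-HSCs lack on their surface, and it stands on the study's list of young HSC markers. The downstream probe, at base 2370, gave 1008 ± 101 for p38α+/+ and 731 ± 73.1 for the array labelled p38αΔ/Δ, levels of 2.81 and 2.67. Its difference of -0.15 ± 0.20 lay within the error. The upstream probe, at base 963, gave 275 ± 27.6 and 111 ± 11.1, levels of 0.94 and -0.06, and a difference of -0.997 ± 0.20. Here again the sites differed in size and not in direction, with a gap of 0.85 that 23.0% of genes with 2 probes equalled or passed.

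**Figure D2:**
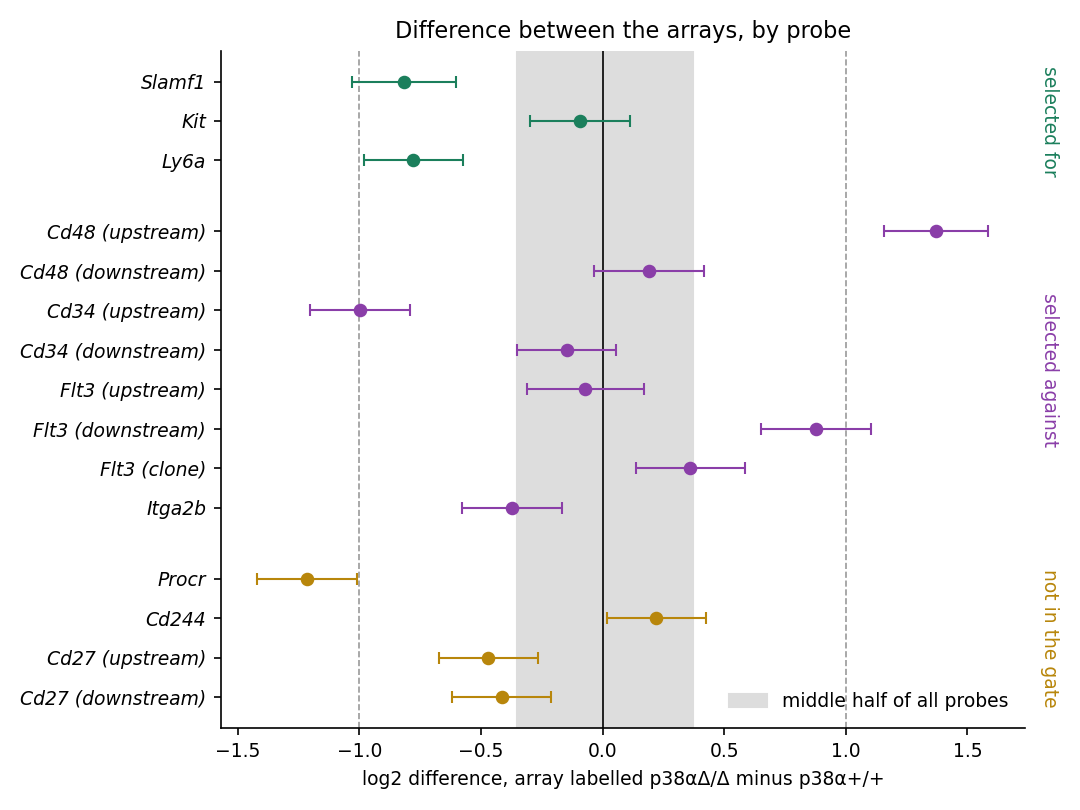
Log2 difference of each probe, array labelled p38αΔ/Δ minus p38α+/+, with bars of 1 scanner error of the difference. The grey band is the interquartile range of all 35776 probes measured on both arrays (-0.35 to 0.37) and the dashed lines mark 2-fold. The genes with more than 1 probe show how far apart their sites lie, from 0.05 for Cd27 to 1.18 for Cd48.

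Flt3, the receptor for Flt3 ligand, rises as stem cells pass to lymphoid-primed multipotent progenitors, and the gate excluded Flt3+ cells. The upstream probe, at base 1371, gave 21.1 ± 2.50 for p38α+/+ and 16.1 ± 1.89 for the array labelled p38αΔ/Δ, levels of -2.77 and -2.84. The difference of -0.07 ± 0.24 was within the error, and it changed sign (0.12) with the normexp correction. The downstream probe, at base 3338, gave 20.3 ± 2.39 and 29.9 ± 3.13, levels of -2.82 and -1.94, and a difference of 0.88 ± 0.23. The remaining site, at chr5:148174133-148174192 on the - strand, was designed on a cDNA clone without a RefSeq transcript and gave 28.8 ± 3.25 and 29.7 ± 3.17, a difference of 0.36 ± 0.22. All Flt3 signals were dim, at most 29.9 where the local background of each array had a median of 17, and the gap of 0.95 between the sites was reached by 38.5% of the 777 genes with 3 probes.

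Itga2b encodes CD41, which pairs with the integrin β3 chain Itgb3 as the platelet fibrinogen receptor. Its exon-junction probe gave 219 ± 21.9 for p38α+/+ and 136 ± 13.6 for the array labelled p38αΔ/Δ, levels of 0.61 and 0.24. The difference of -0.37 ± 0.20 was lower by 1.29-fold, less than 2 scanner errors. Over the genes the gate selected against, 4 of the 8 probes were lower and 4 higher. The median over the 4 genes was 0.11, or 0.008 with each gene averaged over its probes. RNA of all 4 was above background in the sorted cells of both genotypes, although the methods describe selection against their proteins. Under the narrower descriptions the gate selected against Cd48 alone, or against Cd34 and Flt3 alone. In bulk samples such as these, fewer cells of a type and less RNA per cell cannot be told apart.

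Procr encodes EPCR, the receptor of activated protein C, which is enriched on quiescent LT-HSCs and retains them in the marrow. Its signal was 2992 ± 299 for p38α+/+ and 1034 ± 103 for the array labelled p38αΔ/Δ, levels of 4.38 and 3.17. The difference of -1.22 ± 0.20 was the largest fall of the 15 probes, and the probe was bright, in the range where 2.92% of probes fell by 2-fold or more. Between -1.26 and -1.11 under all settings tried, it was the only member probe that stayed beyond 2-fold lower throughout. Procr had no other probe, so no second site of the transcript was read.

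Cd27, a TNF receptor family member found on HSCs and progenitors, was read at neighbouring sites. The upstream probe, at base 956, gave 607 ± 60.7 for p38α+/+ and 352 ± 35.2 for the array labelled p38αΔ/Δ, and the downstream probe, at base 1080, gave 1175 ± 118 and 707 ± 70.8. Their differences of -0.47 ± 0.20 and -0.42 ± 0.20 lay 0.05 apart, closer than in most genes, since 91.8% of genes with 2 probes had a wider gap or the same.

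Cd244, the SLAM receptor 2B4 that binds CD48 and is gained as HSCs become progenitors, gave 852 ± 85.2 for p38α+/+ and 797 ± 79.7 for the array labelled p38αΔ/Δ. The levels were 2.57 and 2.79 and the difference was 0.22 ± 0.20. The whole probe shared runs of up to 21 bases with 16 probes of other names, and part of the shared bases lies beyond those shown above. The run agagaaaccctgtct, which lies in the capitals, stood on either strand of 11 of the 55681 probes (0.0198%). It is a letter run of B1 repeats, which are scattered through mouse transcripts. The other 10 probes with the run were all measured on both arrays and were all higher on the array labelled p38αΔ/Δ, by 0.12 to 0.30 with a median of 0.21, beside the 0.22 of Cd244. The part of this shared run in the Cd244 value was not tested. Apart from Cd244, only the Flt3 clone probe shared such a run, with 1 other probe. The remaining 13 member probes shared none.

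**Figure D3:**
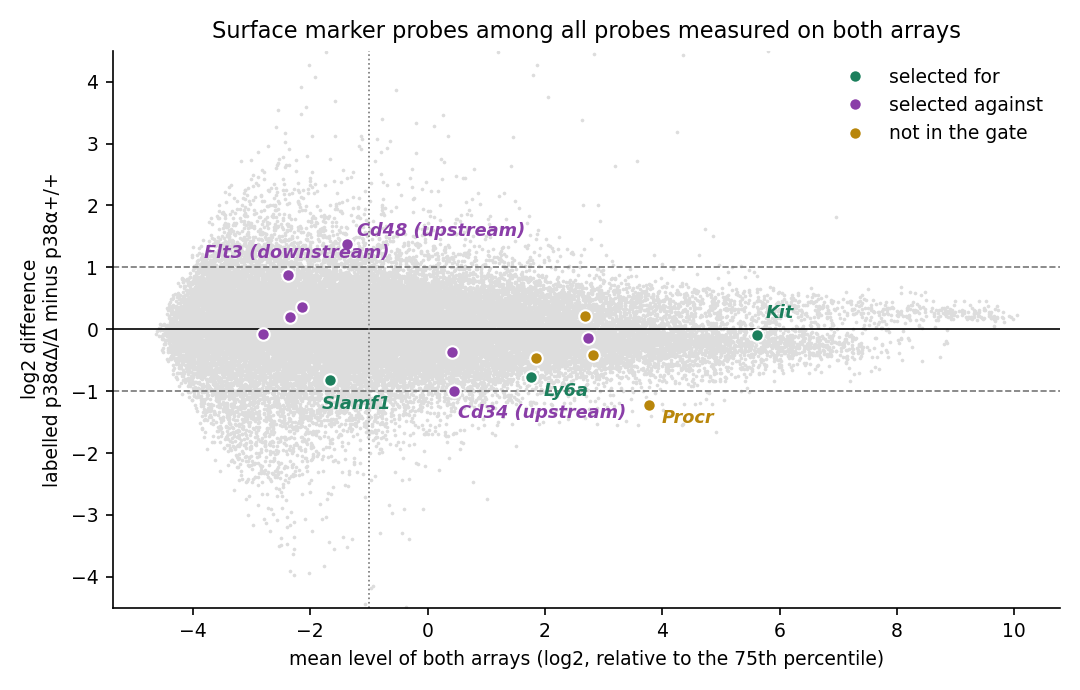
Log2 difference between the arrays against the mean level of both for the probes measured on both arrays (grey; 18 lie outside the vertical range), with the 15 member probes in colour and Kit and those that differed by more than 0.5 named. The dotted line is the edge of the dim range and the dashed lines mark 2-fold. The spread of all probes narrows as the level rises, and Procr lies near the lower edge of the probes of its level while Kit lies within it.

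Slamf1, Cd48 and Cd244 belong to the SLAM receptors, which lie side by side on chromosome 1. Over the part from chr1:173515388 to chr1:173820086 the array held 9 probes of 6 SLAM genes measured on both arrays. Of these 7 were higher and 2 lower, where 50.3% of all probes and 45.5% of dim probes were lower. The rises of both Ly9 probes (0.01 and 0.07), 1 Cd84 probe (0.14) and the downstream Cd48 probe (0.19) were below 0.20, the smallest scanner error of a member difference. The Slamf1 probe and the upstream Cd48 probe, both dim, stood out in opposite directions. With normexp they were at -0.26 and 0.71. The 6 probes of Cd244, Ly9, Slamf7 and Cd84 differed by -0.08 to 0.32, and the downstream Cd48 probe lay within that range. Of the other SLAM family genes, Slamf9 was measured on the array labelled p38αΔ/Δ alone (at least 3.67-fold higher), as was Slamf6 (at least 1.26-fold). Cd2, a T and NK cell receptor that also binds CD48 in the mouse, was measured on the p38α+/+ array alone. Its reading on the other array was 4.19-fold lower. That reading was not well above background and was not set to a limit, so this fold is not a lower bound. Slamf8 was not well above background on either.

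The ligands, partners and adaptors of the markers differed little in their median. Of 14 such genes 11 were measured on both arrays, 7 lower and 4 higher with a median of -0.08. The genes for stem cell factor (Kitl), Flt3 ligand (Flt3l) and the CD41 partner β3 (Itgb3) differed by -0.11, 0.16 and -0.16, while Cd70, the CD27 ligand, was not well above background. In the Ly6 family around Ly6a, 2 of 5 other genes measured on both arrays were lower and 3 higher (median 0.12, which turned to -0.26 without floor and filter and to -0.01 with normexp, and none past 2-fold), and Ly6k and Ly6g were measured on the p38α+/+ array alone, at least 6.63-fold and 2.69-fold lower on the other.

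A further 15 surface genes of HSCs were measured on both arrays. On the array labelled p38αΔ/Δ 9 of the 15 were lower and 6 higher, a share near the 53.1% of all named genes that were lower, with a median of -0.38 and a range of -0.84 to 1.22. The exception past 2-fold was Gprc5c, a retinoic acid-induced receptor of dormant HSCs, which was higher (levels of -0.48 and 0.74, a difference of 1.22). A list of other markers read by flow cytometry on stem and progenitor cells (Il7r, Fcgr3, Selp and Ptprc, which were measured on both arrays, and Fcgr2b, which was not; Ptprc is also in the lineage list below) held 3 lower and 1 higher with a median of -0.38, or -0.08 with normexp. These lists were described beside the median of -0.04 over all named genes, with no test.

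The antibodies of the lineage cocktail used in the sort bind products of 7 further genes as listed here, partner chains included, of which 5 were measured on both arrays, 2 lower and 3 higher, with a median of 0.42. This median did not hold its direction: it was 0.073 with outlier spots kept and -0.12 without floor and filter. Ly6g, another gene of the list, is given above as at least 2.69-fold lower. The brightest Itgam probe, which carries that gene in this count (0.42), shared runs with 134 probes of other names and consists in part of a CA repeat. The other Itgam probes gave -0.42, with no shared run, and 0.88. Of the Cd4 probes, the brighter gave 0.74 and the other, with no shared run, gave -0.01.

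Some markers of mature cells differed between the arrays as well. Beside them, 53.1% of all named genes were lower. A rise of 2-fold or more was seen at 5.01% of all probes and 7.66% of those in the dim range. Counts of 3 of 5, 3 of 6, 5 of 7 or 5 of 8 genes higher in such small lists are not read as a difference from all genes. Neutrophil granule genes were higher on the array labelled p38αΔ/Δ at 8 of 10 genes, 7 of them by 2-fold or more (median 1.40, summed linear level 9.02 against 26.5). Of these, Ltf and S100a9 had the largest rises (2.23 and 2.01), and Elane was lower (-1.41). B lineage genes were higher at 6 of 6 (median 0.59, summed level 3.80 against 18.8, Jchain 3.75 and Cd79a 1.26), and T and NK genes at 6 of 7 (median 0.62, 18.3 against 24.7, Cd3e 1.02), with Cd3d and Cd3g not well above background. The summed levels weigh the brightest genes most. On the array labelled p38αΔ/Δ most of the B lineage sum was that of Jchain alone (log2 level of 3.93). Erythroid genes were higher at 5 of 7 (median 0.46, 24.3 against 34.2, Hbb-bt -1.10) and megakaryocyte genes at 5 of 7 (median 0.47, 80.1 against 77.1, Tubb1 1.86). Multipotent progenitor genes were higher at 5 of 8 (median 0.63, 22.8 against 27.7), with Satb1 at 1.24, Mpo at 1.02 and Ccr9 at -1.43. Most of that sum was Mki67 (log2 levels of 4.14 and 4.41). Mpo and Ctsg, both among the rises, also stand in the neutrophil granule list. Cd4 and Cd8a stand in both the lineage and the T and NK lists, and Gp9 and Itgb3 in both the partner and megakaryocyte lists. The lists are therefore not independent. Monocyte genes (3 of 5 higher, median 0.07, 30.3 against 34.7, Ccr2 not well above background) and endothelial and stromal genes (3 of 6 higher, median 0.10, 7.43 against 7.37, Cdh5 and Col1a1 not well above background) hardly differed in their medians. Most of the monocyte sum was Csf1r (log2 levels of 4.85 and 5.07). With the normexp correction the medians were smaller by over 1.5 times for neutrophil granule (0.84), B lineage (0.32, but 0.98 without floor and filter), T and NK (0.33), multipotent progenitor (0.32) and megakaryocyte genes (0.30), and the monocyte median turned to -0.02 with a loess between the arrays. These differences stood beside those of the surface markers, and the part of other cells in the marker differences was not tested.

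**Figure D4:**
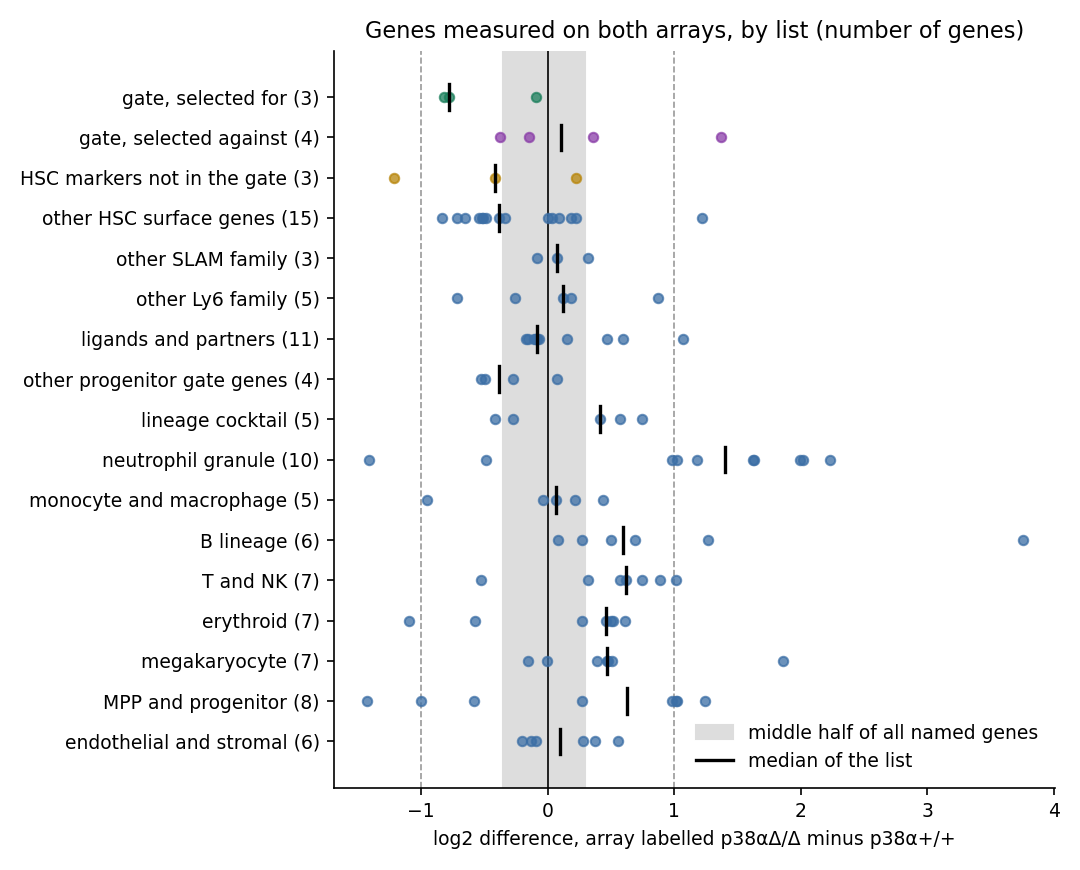
Log2 difference of each gene measured on both arrays, at its brightest probe, by list, with the number of genes in brackets. Vertical ticks are list medians, the grey band is the interquartile range of all 15680 named genes (-0.35 to 0.30) and the dashed lines mark 2-fold. The genes selected for by the gate have a median of -0.78 (-0.26 with normexp), other HSC surface genes of -0.38 and neutrophil granule genes of 1.40 (0.84 with normexp).

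The way the signal was processed mattered for some of the probes. Of the 15 member probes, 6 moved by more than 0.12 under the normexp correction, and none did under the 7 other settings applied to single probes. The value 0.12 is the median SD between spots over the repeated probes of all levels (278 probes). Of the 6, 5 lay in the dim range (Slamf1, Cd48 upstream and the 3 Flt3 probes) and 1, Cd34 upstream, was brighter (-0.997 against -0.76), while the dim Cd48 downstream probe kept its value (0.19 against 0.18). The normexp values that moved most were those of Cd48 upstream (1.37 against 0.71), Slamf1 (-0.82 against -0.26) and Flt3 downstream (0.88 against 0.41). Which probes moved depends on the SD used. With normexp the dim Flt3 upstream (-0.07 against 0.12) and clone (0.36 against 0.23) probes stayed within the dim SD of 0.23. With quantile normalization the brighter Procr (-1.22 against -1.11) and Kit (-0.09 against -0.0008) probes passed the brighter SD of 0.08.

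**Figure D5:**
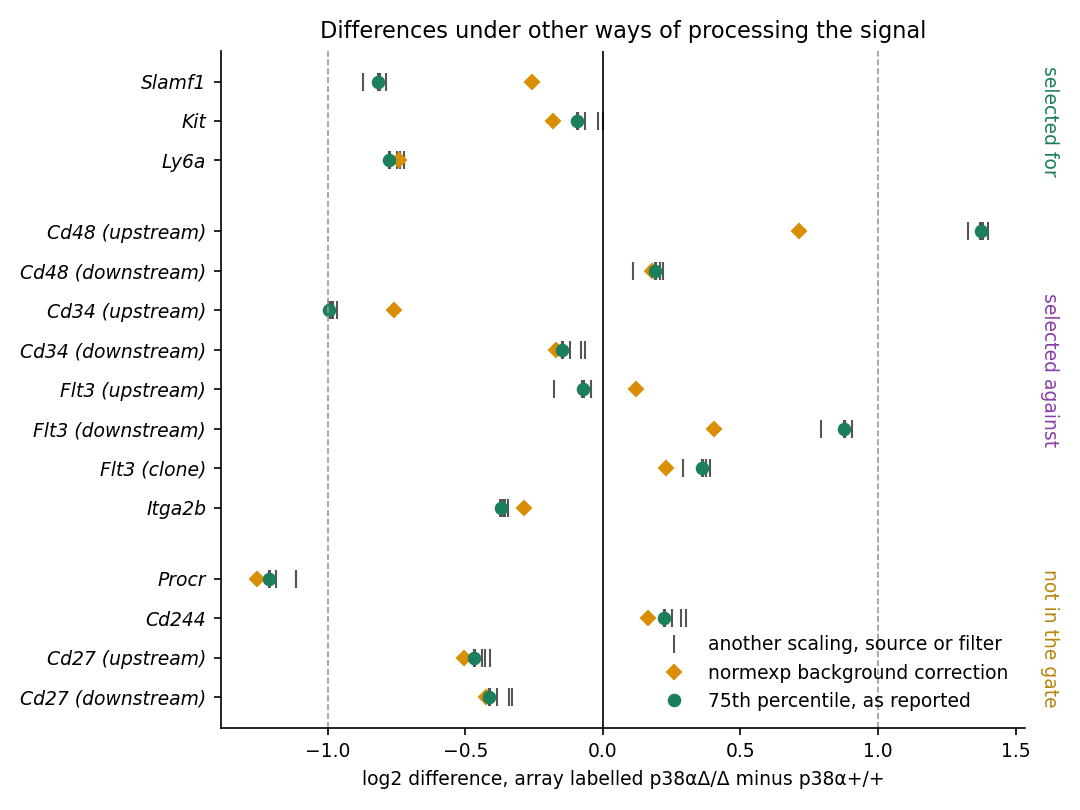
Log2 difference of each member probe as reported (circles), with the normexp background correction (diamonds) and under 7 other settings (ticks: quantile normalization, median centring, a loess between the arrays, the authors' normalized values, another base for the percentile, outlier spots kept, no floor or filter). The dashed lines mark 2-fold. Procr stays below -1 throughout, and the Slamf1, upstream Cd48 and downstream Flt3 probes lie closer to 0 with the normexp correction.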

How the data were processed

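RNA of LT-HSCs was measured on 2 single-colour Agilent mouse arrays, 1 per genotype. The authors deposited scanner intensities from Agilent Feature Extraction 11.5.1.1, which are background-subtracted and detrended but not yet set to a common scale, and a table of normalized log2 values of 35795 probes, in which each column equals the log2 signal minus a constant of its array. Coordinates are those of mm9 in the scanner files.

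Control spots and spots marked as outliers were left out, the log2 signals of a probe's spots were averaged, and each array's 75th percentile over 55662 probes was subtracted. Dimmer signals were set to no less than the lowest level well above background (-4.65 and -4.72). A fold with such a side is a lower bound. Other genes were named through RefSeq accessions and symbols and were represented by their brightest probe. The member genes and all lists were chosen with earlier results of these data known. Genes named from lists were the largest 2 falls and 2 rises of at least 2-fold, and genes measured on 1 array. Itgam, Kitl, Flt3l, Itgb3, Cd70, Il7r, Fcgr3, Selp, Ptprc, Fcgr2b, Ly9, Slamf7 and Cd84 were named for their role. Mki67 and Csf1r were named for their part in a summed level, and Ctsg, Cd4, Cd8a and Gp9 for standing in more than 1 list. Some genes of the lists are not reported here. The number of arrays limits the precision. Both arrays lay on 1 slide, so slide was no batch. On simulated data 200 of 200 probes changed by known amounts were recovered among 55662. Every planted change was larger than 2-fold and the noise was smaller than the spread of dim spots. The simulation thus checked the steps and not the accuracy of smaller differences. The versions were R 4.3.3 with limma 3.58.1, and Python 3.11.15 with pandas 2.3.3, numpy 2.4.6, matplotlib 3.10.9 and statsmodels 0.14.6.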

Additional observations from a re-analysis of the deposited data

How the results depend on the processing

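The count of member probes at least 2-fold lower stayed at 1 under every setting tried. The count at least 2-fold higher went from 1 to 0 with the normexp background correction, under which the median of the genes selected for by the gate moved from -0.78 to -0.26. When each gene was given the average over its probes, the median of the 10 genes moved from -0.26 to -0.41. Without the Cd244 and Flt3 clone probes that share runs with probes of other genes, a setting chosen after seeing the data, the median of the genes selected against moved from 0.11 to 0.37. The medians of the 10 genes, of those selected for and of those selected against kept their direction under every setting. That of the genes selected against nearly vanished, at 0.008, when each gene was given the average over its probes. Single member probes moved by more than the SD between spots over all levels (0.12) only with normexp, 6 of 15. With the separate SDs of dim and brighter probes the set differed, as given above. Of the 14 other list medians, 9 moved with normexp, 3 without floor and filter and 1 with outlier spots kept. The medians of the lineage cocktail (-0.12) and of other Ly6 genes (-0.26) turned without floor and filter, the latter also with normexp (-0.01), and those of monocyte genes (-0.02) and of other SLAM genes turned with a loess. The cause of these shifts was not tested. No paired analysis was possible because each group has 1 array, and for the same reason no replicate could be left out. Signal over background limits the Flt3, Cd48 and Slamf1 probes, all of which lay in the dim range.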
